A study of Rattus norvegicus with 8 samples.

Results

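The Kcn genes encode the pore-forming subunits of potassium channels and some of their partner subunits. They were taken as every rat gene whose symbol is Kcn, a subfamily letter (a to h, j, k, m, n, q, s, t or v) and a digit. The rat gene table held 83 such genes, and 77 of them had a probe on the array through their RefSeq accession. Of these, 64 were measured and are the members described here, out of 12148 genes tested. A gene counted as measured where each array of some group had its probe well above background. The 13 genes with a probe that did not reach this level were Kcna10, Kcne3, Kcne5, Kcng3, Kcng4, Kcnh5, Kcnj1, Kcnj2, Kcnj6, Kcnj13, Kcnj15, Kcnk9 and Kcnk15. No probe was matched for 6 genes, among them Kcnd2l1, Kcnk7, Kcnk6-ps1, Kcnk16-ps1 and Kcnq5. The subfamily letter m matched no symbol, because Kcnma1 and the Kcnmb genes carry another letter before the digit. They were read with the partner genes instead.

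Potassium channels let potassium ions leave the cell and so hold the resting potential, end the action potential and set how readily a neuron fires again. Voltage-gated subunits (Kcna to Kcnd, Kcnh and Kcnq) open on depolarisation, and the Kcnf, Kcng, Kcns and Kcnv subunits are silent alone and modify Kcnb channels. Inward rectifiers (Kcnj) and two-pore channels (Kcnk) carry resting currents, while Kcnn and Kcnt channels open with intracellular calcium or sodium. In sensory neurons of the dorsal root ganglion these currents limit excitability, and Kcnq3 is a subunit of the M-channel, which carries a slow current that restrains repetitive firing.

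The cultures were dissociated dorsal root ganglia of Wistar rats aged 0 to 5 days, with cells of both sexes pooled, in a serum-free medium that contained the antimitotic 5-fluoro-2'-deoxyuridine with uridine. After 2 to 3 days in culture, each was treated for 5 days with 100 ng/ml of a human protein. It was given as the single mutant P61S (n = 3 arrays), as the double mutant P61S/R100E (n = 3 arrays) or as wild type (n = 2 arrays). Untreated cultures were not analysed here. The arrays read RNA of neurons and non-neuronal cells together, so fewer cells of a type and less RNA per cell cannot be told apart. Whether the replicates were separate cultures or animals is not given in the sources used here, so p-values measure only the spread between these samples, which may be technical.

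The 8 one-colour arrays lay on 1 slide, in 2 rows of 4 columns. Their 75th percentile signals ran from 3267 to 5269 intensity units, and 78.7% to 88.8% of spots were well above background. Both wild type arrays lay in column 4, which held no other array, so column and wild type cannot be told apart. P61S lay in columns 1, 2 and 1, and P61S/R100E in columns 3, 2 and 3, so column 2 alone held both mutants, with 1 array each. Wild type replicate 2 stood apart: its correlations with the other arrays over probes were 0.983 to 0.989, against 0.990 to 0.996 among the other 7. It was the highest array for 24 of the 64 members, against 33.3% of all tested genes.

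Levels are given as log2 of the processed signal minus log2 of the 75th percentile of the array, and differences as log2 units of the first group minus the second. A level is not compared between genes, because probes bind with different strength. Of the 64 members, 55 were well above background on all 8 arrays, and 45 stayed within a range of 1 log2 unit over the 8 arrays. The median SD within groups was 0.207 for the members and 0.148 for all tested genes. Kcns3, a modifier subunit of large mechanosensitive neurons, had the narrowest range, 0.18 log2 units. Kcne1, a small partner subunit, had the widest, 3.69, and was well above background on 6 of 8 arrays.

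**Figure D1:**
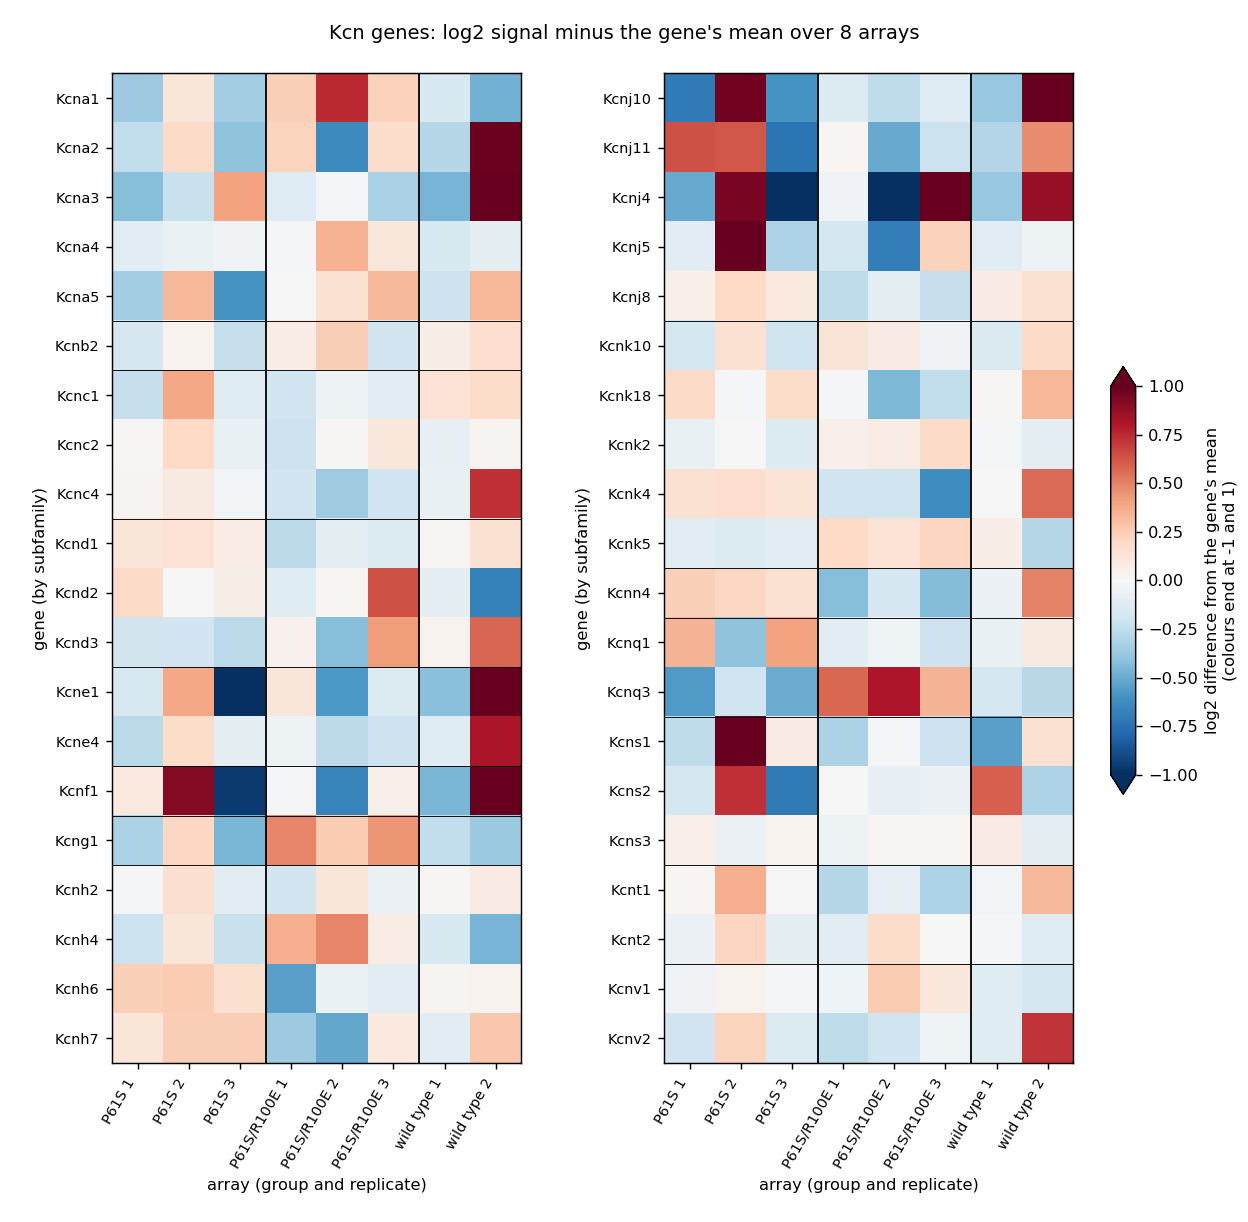
Each cell is the log2 signal of 1 of the 40 Kcn genes named in the text and measured (rows, grouped by subfamily) on 1 array (columns, grouped by the form of the protein) minus that gene's mean over the 8 arrays; colours end at -1 and 1. Kcnq3, Kcng1 and Kcna1 are red on the 3 P61S/R100E arrays, Kcnn4 and Kcnk4 are blue there, and the deepest reds of many genes fall on wild type replicate 2 (Kcna2, Kcne1, Kcnc4, Kcnv2).

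Between P61S/R100E and P61S, the M-channel subunit gene Kcnq3 differed most, with 1.99-fold more signal in P61S/R100E. Kcng1 and Kcna1 were 1.50-fold and 1.52-fold higher, and the calcium-activated channel gene Kcnn4 and the mechanically gated channel gene Kcnk4 were 1.46-fold and 1.41-fold lower. No member passed an adjusted p of 0.05 in limma (0 of 64), and the smallest adjusted p among them was 0.258, of Kcnq3. Over all 23585 probes, 0.0% passed that threshold and 4.01% had an unadjusted p under 0.05. At an unadjusted p under 0.05, 13 of 64 members differed, 5 higher (background 2.37% of tested genes) and 8 lower (background 2.3%), against 4.68% of tested genes in either direction. The median size of the difference, whatever its sign, was 0.16 log2 units over the members and 0.089 over all tested genes. The groups did not overlap for 17 members (15.7% of tested genes), 6 higher (background 7.21%) and 11 lower (background 8.48%). With the column of the slide as a covariate, 4 members had an unadjusted p under 0.05 (3.75% of tested genes in that fit), and 2 of them, Kcnq3 and Kcnh7, were among the 13. Column entered this fit as a number, so its slope rested on replicate 2 of each mutant, the only arrays outside their group's column.

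Kcnq3 read -2.79, -2.42 and -2.72 in P61S, -1.65, -1.42 and -1.89 in P61S/R100E, and -2.40 and -2.50 in wild type. All 3 P61S/R100E arrays lay above the other 5, and no P61S/R100E array came within the range of the others. The difference from P61S was 0.99 log2 units (SE 0.150, 95% interval 0.63 to 1.35, unadjusted limma p 3.22e-04), and from wild type 0.80 (SE 0.168, 95% interval 0.40 to 1.20, unadjusted limma p 0.00216). A second Kcnq3 probe gave -5.26, -5.27 and -5.41 in P61S, -4.67, -4.60 and -4.74 in P61S/R100E and -5.49 and -5.09 in wild type. This probe was also higher in P61S/R100E than on every other array, by 0.64 against P61S and 0.63 against wild type. The difference of the first probe from P61S was 0.95 in slide row 1, 1.07 in row 2 and 1.01 within column 2.

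Kcnq1, a Kcnq subunit best known from epithelia and heart, read -1.90, -2.64 and -1.84 in P61S, -2.35, -2.28 and -2.44 in P61S/R100E and -2.31 and -2.15 in wild type, so that 1 P61S array lay below all others.

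Kcng1, a silent subunit that modifies Kcnb channels, read -3.22, -2.70 and -3.36 in P61S, -2.41, -2.65 and -2.47 in P61S/R100E and -3.15 and -3.28 in wild type. P61S/R100E was above the other 5 arrays, with P61S replicate 2 next to it. Its difference was 0.58 from P61S (SE 0.177) and 0.70 from wild type (SE 0.198). Within column 2, which holds P61S replicate 2, the difference was 0.05, and a second Kcng1 probe differed by 0.05 from P61S and by -0.40 from wild type, so the probes of this gene disagree, and their mean had an unadjusted limma p of 0.123 against P61S.

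Kcna1, a low-threshold channel subunit of axons, read -1.96, -1.47 and -1.94 in P61S, -1.36, -0.85 and -1.37 in P61S/R100E, and -1.75 and -2.07 in wild type. P61S/R100E lay above the other 5 arrays, by 0.60 against P61S (SE 0.202) and 0.72 against wild type (SE 0.226) on average. Kcna4, an A-type subunit that inactivates quickly, was also highest in P61S/R100E, with -4.71, -4.68 and -4.65 in P61S, -4.63, -4.26 and -4.50 in P61S/R100E and -4.76 and -4.70 in wild type. Its differences of 0.22 and 0.27 did not reach an unadjusted p of 0.05. Kcna2, which joins Kcna1 in axonal channels, read -4.48, -4.04 and -4.63 in P61S, -4.01, -4.87 and -4.06 in P61S/R100E and -4.52 and -3.25 in wild type, with its highest value on wild type replicate 2.

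Kcnk5, a two-pore channel gated by external pH, read -0.63, -0.66 and -0.63 in P61S, -0.32, -0.38 and -0.31 in P61S/R100E and -0.46 and -0.81 in wild type. The difference was 0.30 against either group, with all P61S/R100E arrays above the rest. Kcnh4, a channel of the Elk group, read -4.39, -4.06 and -4.40 in P61S, -3.82, -3.69 and -4.10 in P61S/R100E and -4.33 and -4.65 in wild type. P61S replicate 2 overlapped with P61S/R100E, and both wild type arrays lay below it. The difference was 0.41 from P61S and 0.62 from wild type.

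**Figure D2:**
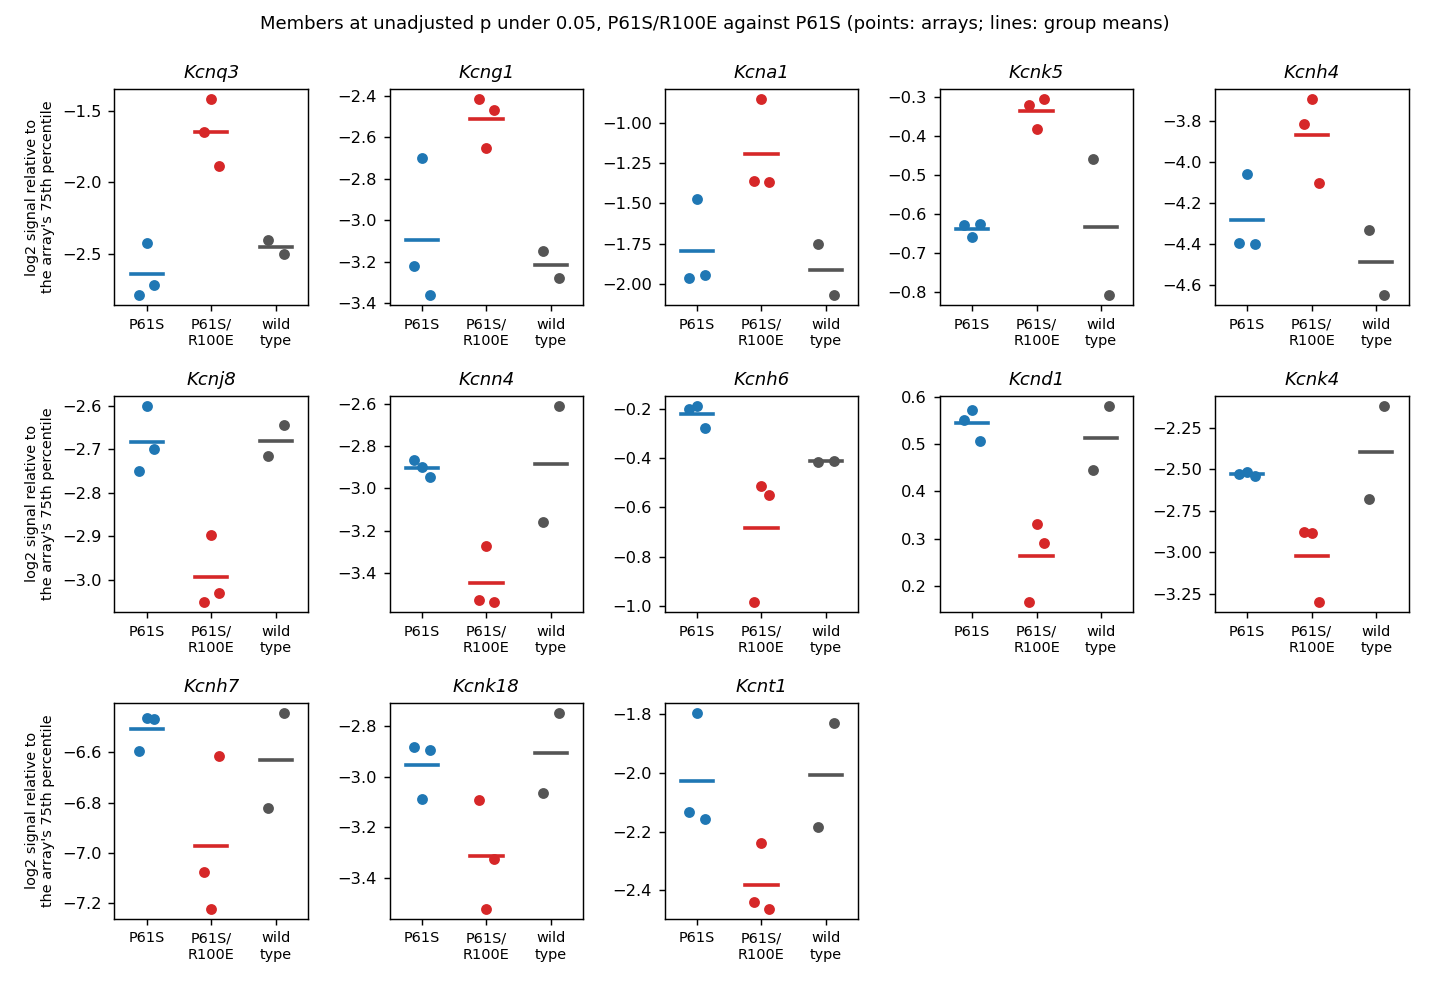
Points are single arrays and lines are group means of log2 signal, as the level defined above (vertical axes, a separate range for each gene), by form of the protein, for the 13 members at an unadjusted p under 0.05 between P61S/R100E and P61S. The 5 genes of the top row are higher and the other 8 lower in P61S/R100E; Kcnk18 shows a P61S/R100E array at -3.09 level with a P61S array at -3.09.

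Among the members lower in P61S/R100E, Kcnn4, a calcium-activated channel of intermediate conductance, read -2.87, -2.90 and -2.95 in P61S, -3.53, -3.27 and -3.54 in P61S/R100E and -3.16 and -2.61 in wild type. All P61S/R100E arrays lay below the other 5. The difference was -0.54 from P61S (SE 0.153, unadjusted limma p 0.00961) and -0.56 from wild type (SE 0.171, unadjusted limma p 0.0136). Kcnj8, the pore of an ATP-sensitive channel, read -2.75, -2.60 and -2.70 in P61S, -3.05, -2.90 and -3.03 in P61S/R100E and -2.72 and -2.64 in wild type. It lay below the other 5 arrays by -0.31 against either group (SE 0.084 and 0.094), the smallest p among the lower members in both comparisons.

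Both Erg-type genes that differed, Kcnh6 and Kcnh7, were lower. Kcnh6 read -0.20, -0.19 and -0.28 in P61S, -0.98, -0.51 and -0.55 in P61S/R100E and -0.42 and -0.41 in wild type, so that wild type lay between the mutants. Its difference was -0.46 from P61S and -0.27 from wild type, the latter with an unadjusted limma p of 0.118. Kcnh7 read -6.59, -6.47 and -6.47 in P61S, -7.07, -7.22 and -6.62 in P61S/R100E and -6.82 and -6.44 in wild type, a difference of -0.46 from P61S with the highest P61S/R100E array next to the lowest P61S array. Kcnh2, the third Erg gene, differed by -0.05 from P61S (95% interval -0.32 to 0.22).

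Kcnd1, an A-type channel subunit, read 0.55, 0.57 and 0.51 in P61S, 0.17, 0.33 and 0.29 in P61S/R100E and 0.44 and 0.58 in wild type, below the other 5 arrays by -0.28 and -0.25. Of its relatives, Kcnd2 and Kcnd3 did not reach an unadjusted p of 0.05 in any comparison. Kcnd3 read -4.85, -4.85 and -4.93 in P61S, -4.62, -5.09 and -4.24 in P61S/R100E and -4.63 and -4.08 in wild type, with P61S/R100E spread over the range of the other groups. Kcnd2 is described with the comparison of P61S and wild type.

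Among the two-pore channels, Kcnk4, the TRAAK channel opened by membrane stretch, read -2.53, -2.51 and -2.54 in P61S, -2.88, -2.88 and -3.30 in P61S/R100E and -2.68 and -2.11 in wild type. It was lower than the other 5 arrays by -0.49 against P61S (SE 0.176) and -0.62 against wild type (SE 0.197). Kcnk18, the TRESK channel of sensory neurons, which calcineurin activates, read -2.88, -3.09 and -2.89 in P61S, -3.09, -3.52 and -3.33 in P61S/R100E and -3.07 and -2.75 in wild type. Its differences were -0.36 and -0.41. The first P61S/R100E array and the second P61S array nearly coincided, and within slide row 1 the differences were -0.11 and -0.03, against -0.53 and -0.68 in row 2.

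Kcnt1, the sodium-activated Slack channel, read -2.13, -1.79 and -2.16 in P61S, -2.44, -2.24 and -2.46 in P61S/R100E and -2.18 and -1.83 in wild type. P61S/R100E lay below the other 5 arrays, by -0.35 and -0.37. Its relative Kcnt2 differed by 0.01 (95% interval -0.28 to 0.29) and 0.10. The fast-inactivating channel gene Kcnc4 also lay below the other 5 arrays in P61S/R100E, by -0.28 against P61S, without an unadjusted p under 0.05 in that comparison.

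Promoter sequences are shown for the members with the smallest p in each direction among those in the RefSeq promoter table (assembly GRCr8), so that the letters next to the start sites of genes that differed in opposite directions can be read side by side. Each runs 5' to 3' on the gene's strand from 250 bases before to 50 after the start. Capitals mark matches, on either strand, to the short CRE motif (TGACG), the AP-1 motif (TGANTCA), the EGR motif (GCGNGGGCG) or the SP1 GC box (GGGCGG). The EGR motif and the GC box can overlap. Kcnk5 lies at chr15:4171375-4171674 (plus strand) and Kcnh4 at chr10:86188427-86188726 (minus strand); both genes were higher in P61S/R100E. Kcnj8 lies at chr4:177246499-177246798 (minus strand) and Kcnh6 at chr10:91449401-91449700 (plus strand); both were lower.
Kcnk5: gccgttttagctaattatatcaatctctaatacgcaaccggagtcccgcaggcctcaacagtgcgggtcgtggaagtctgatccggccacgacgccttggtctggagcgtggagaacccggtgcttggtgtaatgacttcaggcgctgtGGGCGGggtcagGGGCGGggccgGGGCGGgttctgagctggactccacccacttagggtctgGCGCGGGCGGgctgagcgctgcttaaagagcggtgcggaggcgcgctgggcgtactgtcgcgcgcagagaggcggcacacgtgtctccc
Kcnh4: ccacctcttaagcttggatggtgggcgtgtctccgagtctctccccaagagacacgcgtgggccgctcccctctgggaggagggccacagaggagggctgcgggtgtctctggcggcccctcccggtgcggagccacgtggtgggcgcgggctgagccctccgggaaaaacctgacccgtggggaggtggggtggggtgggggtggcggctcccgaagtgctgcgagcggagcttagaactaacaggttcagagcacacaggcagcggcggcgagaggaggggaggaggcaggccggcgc
Kcnj8: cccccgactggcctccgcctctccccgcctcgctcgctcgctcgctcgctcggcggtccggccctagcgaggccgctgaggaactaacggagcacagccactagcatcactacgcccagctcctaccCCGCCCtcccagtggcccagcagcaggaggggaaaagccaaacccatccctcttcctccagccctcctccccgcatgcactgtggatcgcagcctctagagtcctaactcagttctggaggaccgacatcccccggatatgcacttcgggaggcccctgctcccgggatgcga
Kcnh6: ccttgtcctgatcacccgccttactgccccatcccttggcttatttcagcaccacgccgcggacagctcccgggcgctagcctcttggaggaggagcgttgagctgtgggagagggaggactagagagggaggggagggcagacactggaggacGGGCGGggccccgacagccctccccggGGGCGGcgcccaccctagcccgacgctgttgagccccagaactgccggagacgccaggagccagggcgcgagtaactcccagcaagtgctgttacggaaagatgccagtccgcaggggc

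The Kcnk5 sequence held 4 GC boxes and 1 EGR motif, the Kcnh6 sequence 2 GC boxes and the Kcnj8 sequence 1 GC box. The Kcnh4 sequence held none of these 4 motifs. GC boxes thus stood in promoters of genes of either direction. Among the 43 promoters of 39 measured members in the table, 53.5% held a GC box, against 33.1% of all 33469 promoters of this length. The short CRE motif stood in 16.3% against 21.2%, the AP-1 motif in 4.65% against 7.33%, the EGR motif in 9.30% against 4.98% and the E-box (CANNTG) in 65.1% against 72.1%. The median GC content was 61.7% in the members' promoters and 51.7% in all. These are matches of letters in a window, not binding sites.

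Between P61S/R100E and wild type, Kcnq3 (1.74-fold), Kcna1 (1.64-fold), Kcng1 (1.63-fold), Kcnh4 (1.53-fold) and Kcnk5 (1.23-fold) were higher in P61S/R100E. Kcnk4 (1.54-fold), Kcnc4 (1.49-fold), Kcnn4 (1.48-fold), Kcnk18 (1.33-fold), Kcnj8 (1.24-fold) and Kcnd1 (1.19-fold) were lower. No member passed an adjusted p of 0.05 in limma (0 of 64), and the smallest adjusted p was 0.629. Over all probes, 0.0% passed that threshold and 5.04% had an unadjusted p under 0.05. At an unadjusted p under 0.05, 12 members differed, 6 higher (background 2.03%) and 6 lower (background 3.15%), against 5.19% of tested genes in either direction. The groups did not overlap for 20 members (16.2% of tested genes), 10 higher (background 7.46%) and 10 lower (background 8.73%). The median difference was -0.13 log2 units over the members and -0.029 over all tested genes. Kcne1, Kcnf1, Kcnj4, Kcnj5, Kcnj10 and Kcnj11 passed the filter through wild type alone, which favours lower values against wild type. Kcna3, Kcna5 and Kcns2 passed it through P61S/R100E alone, which favours higher values there. The median over the members is therefore not read as a shift of the family. Both comparisons of P61S/R100E share its 3 arrays, so the 10 members called in both do not count as called independently.

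Kcnc4 read -4.54, -4.47 and -4.58 in P61S, -4.75, -4.91 and -4.76 in P61S/R100E and -4.64 and -3.83 in wild type. Wild type replicate 2 was the highest array, and without it the difference from wild type was -0.17 in place of -0.58. Kcnv1, a silent subunit, read -0.60, -0.53 and -0.59 in P61S, -0.61, -0.32 and -0.47 in P61S/R100E and -0.69 and -0.74 in wild type, a difference of 0.25 from wild type. The P61S/R100E arrays lay outside all 5 other arrays for 15 members, 6 above (background 3.17%) and 9 below (background 3.28%), against 6.45% of tested genes.

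**Figure D3:**
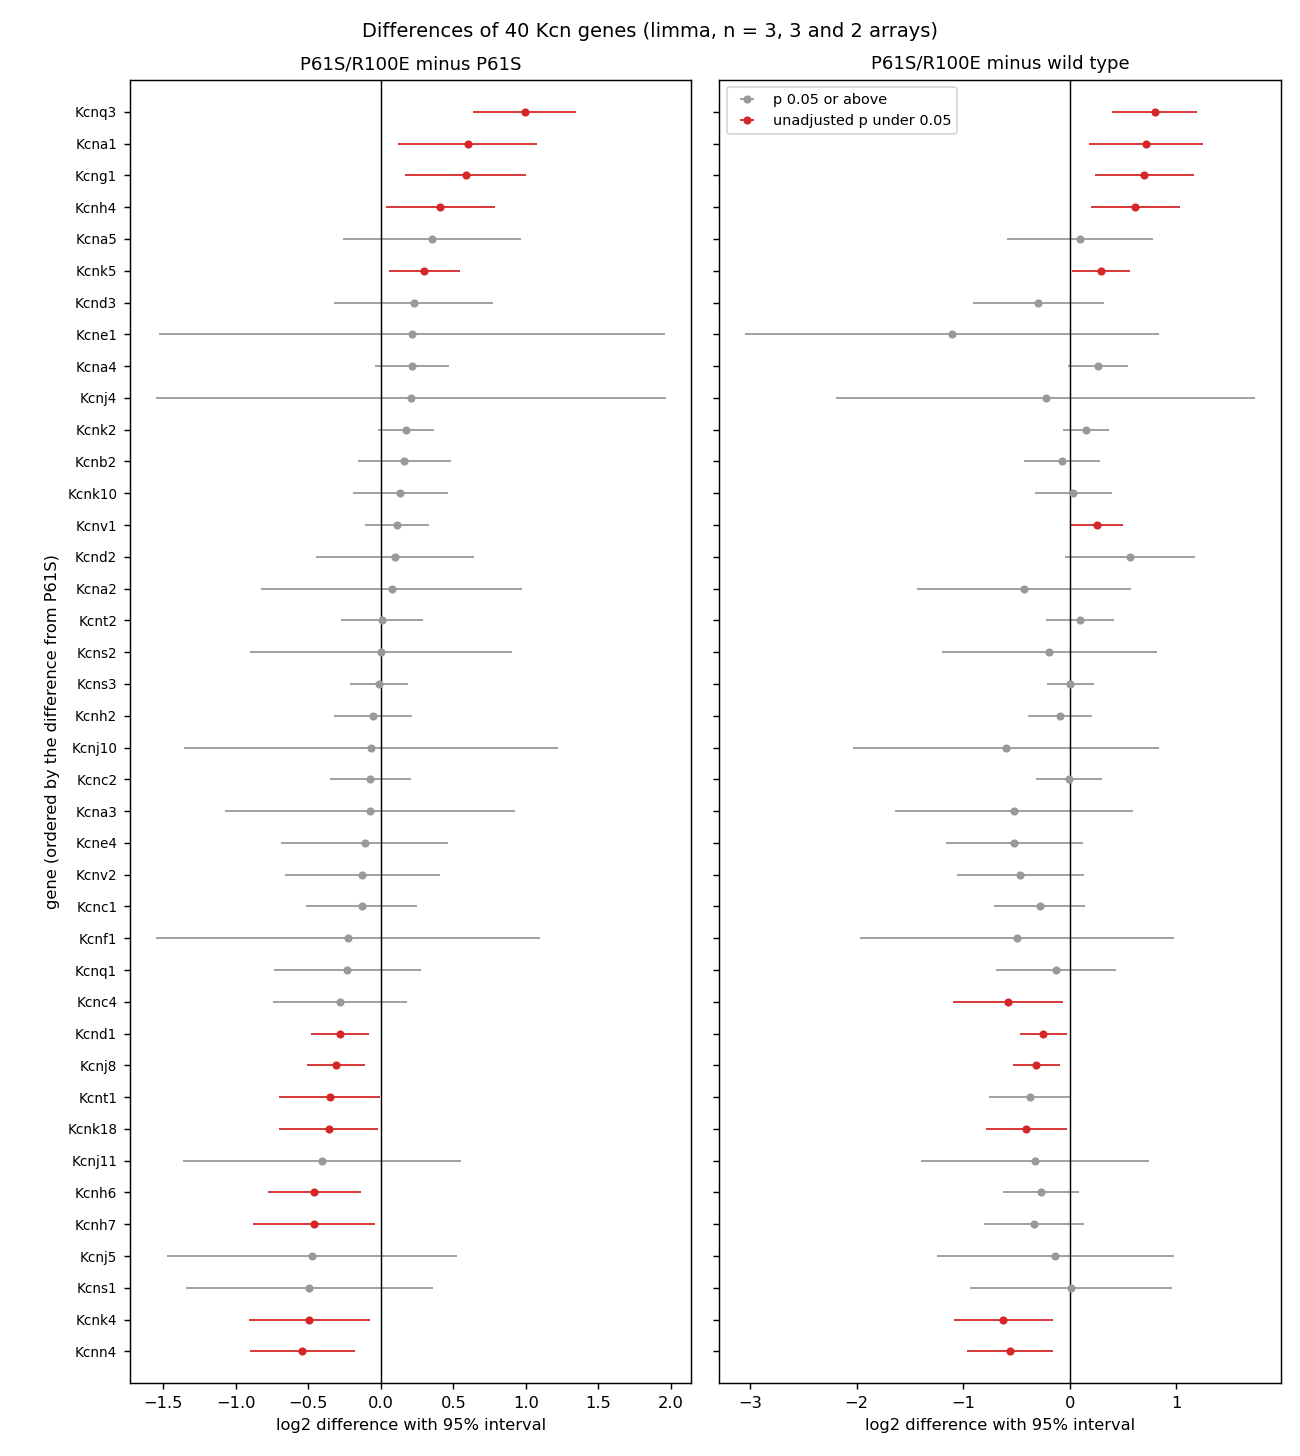
Points are log2 differences (horizontal axes) of 40 of the 64 members, those named in the text, with 95% intervals from limma, ordered by the difference between P61S/R100E and P61S; the left panel is against P61S and the right panel against wild type. Red marks an unadjusted p under 0.05, with 13 members on the left and 12 on the right; the intervals of Kcne1, Kcnj4 and Kcnj10 are among the widest.

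The count against wild type rested on single arrays. Without wild type replicate 2, which stood apart from the other arrays, 1 member kept an unadjusted p under 0.05, Kcnq3, with a difference of 0.75, against 2.21% of tested genes in that fit. Without wild type replicate 1, 22 members reached it and 4, Kcnc4, Kcne4, Kcnk5 and Kcnn4, passed an adjusted p of 0.05, against 24.6% of tested genes at the unadjusted threshold in the same fit. In the 2 rows of the slide, the direction against wild type was the same for all 13 members called against P61S, and the size varied. For members whose P61S/R100E arrays all lay outside all other arrays, such as Kcnq3 and Kcnj8, this direction was fixed in advance. The split by row thus adds no support for them. For Kcnk4 the difference was -0.20 in row 1 and -0.98 in row 2, and for Kcnj8 it was -0.34 and -0.32. Against P61S, leaving out P61S replicate 1 gave 7 members at an unadjusted p under 0.05 (2.72% of tested genes) and leaving out P61S replicate 3 gave 8 (2.94% of tested genes), with 6 and 7 of them among the 13.

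**Figure D4:**
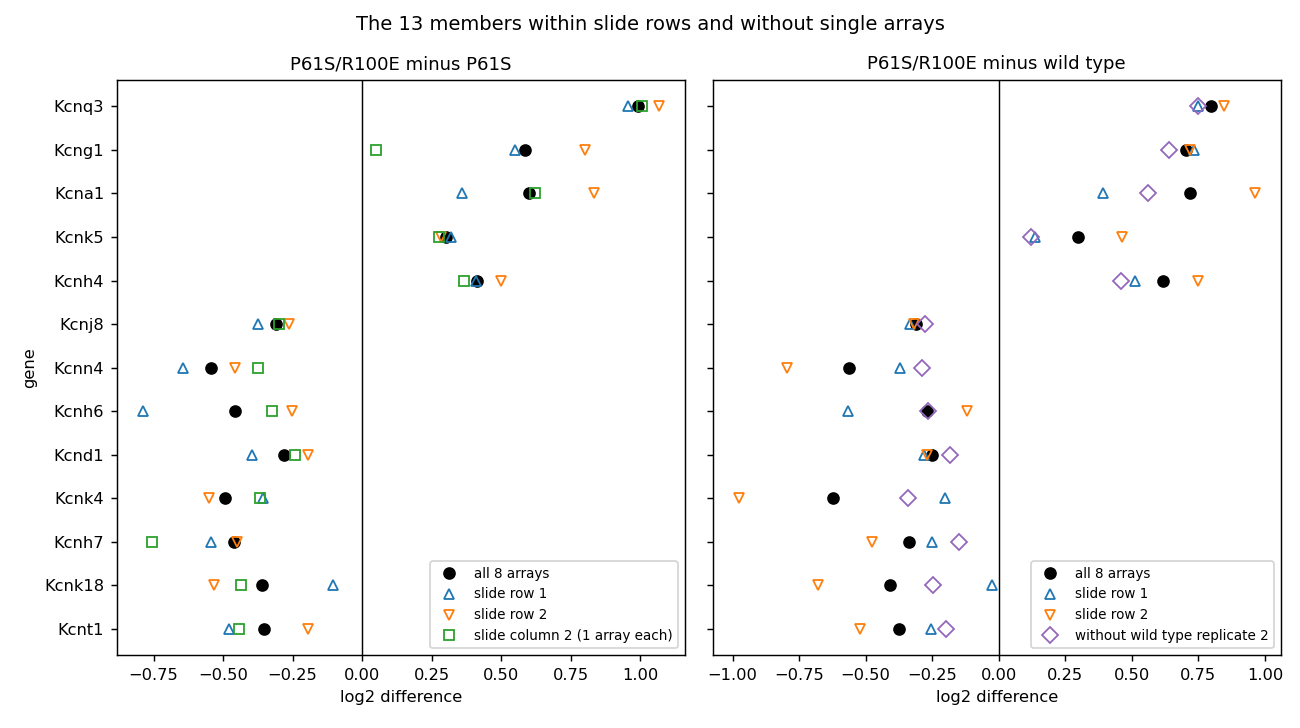
Horizontal axes give the log2 difference of P61S/R100E from P61S (left) and from wild type (right) for the 13 members of the first comparison (rows). Black points use all 8 arrays, triangles the arrays of slide row 1 or row 2, squares the 1 array of each mutant in slide column 2, and diamonds all arrays but wild type replicate 2. All marks of a gene lie on 1 side of 0, which had to be so where all P61S/R100E arrays lay outside all other arrays. The Kcng1 square lies at 0.05.

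By class, 7 of 34 measured voltage-gated genes (modifier subunits included), 1 of 10 Kcnj genes, 3 of 11 Kcnk genes, 2 of 6 Kcnn and Kcnt genes and 0 of 3 Kcne genes had an unadjusted limma p under 0.05 between P61S/R100E and P61S. Against wild type the counts were 7, 1, 3, 1 and 0 in the same order. The background shares of 4.68% and 5.19% apply. Of the 10 measured inward rectifiers, 8 had a difference below 0 against P61S (7 with quantile normalization), with a median of -0.12. Against wild type 9 did (8 with quantile normalization and 5 with slide column as a covariate), with a median of -0.24. The medians of all tested genes were -0.011 and -0.029. Kcnj4, Kcnj5, Kcnj10 and Kcnj11 passed the filter through wild type alone, which favours lower values against wild type. Of all 64 members, 32 were below 0 against P61S and 41 against wild type. Among these, Kcne1 and Kcnf1 also passed the filter through wild type alone. Between P61S and wild type, 8 of the 10 inward rectifiers were also below 0. Of the fast-spiking Kcnc group, Kcnc1 differed by -0.13 and -0.28 and Kcnc2 by -0.07 and -0.0040.

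Several other channels have known parts in sensory neurons. Kcnk2, the TREK channel opened by stretch and warmth, read -1.12, -1.05 and -1.18 in P61S, -1.0, -0.98 and -0.86 in P61S/R100E and -1.07 and -1.14 in wild type. P61S/R100E lay above the other 5 arrays by 0.17 and 0.16 (unadjusted limma p 0.0745 and 0.128). The other Kcnk2 probes differed by -0.15 and -0.07 from P61S and by -0.43 (unadjusted limma p 0.0835) and -0.02 from wild type, so the probes of Kcnk2 disagree. Kcnk10, a related channel, read -3.69, -3.36 and -3.71 in P61S, -3.39, -3.43 and -3.54 in P61S/R100E and -3.66 and -3.32 in wild type, with overlapping groups. Kcns3 read -2.19, -2.30 and -2.20 in P61S, -2.29, -2.22 and -2.22 in P61S/R100E and -2.16 and -2.34 in wild type, a difference of -0.01 from P61S (95% interval -0.21 to 0.19). Kcns1, a modifier subunit of sensory neurons, read -7.12, -5.76 and -6.78 in P61S, -7.18, -6.88 and -7.07 in P61S/R100E and -7.41 and -6.71 in wild type. P61S replicate 2 stood above its other arrays, and the groups overlapped.

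Between P61S and wild type, no member reached an unadjusted p under 0.05 in limma on its brightest probe (0 of 64). The background was 1.72% of tested genes, 0.593% higher and 1.13% lower. A dimmer probe of a member not reported by name was higher in P61S by 0.25 (unadjusted limma p 0.0137). No member passed an adjusted p of 0.05, as over all probes (0.0%, with 2.07% at an unadjusted p under 0.05). The largest differences by p were Kcnd2, higher in P61S by 0.47 log2 units (SE 0.258, unadjusted limma p 0.113), and Kcnd3, lower by -0.52 (SE 0.260, unadjusted limma p 0.0858). Kcnd2 read -5.02, -5.22 and -5.15 in P61S, -5.33, -5.19 and -4.58 in P61S/R100E and -5.31 and -5.88 in wild type, and its second probe differed by 0.002 between P61S and wild type. On the second probe, every P61S/R100E array lay above all other arrays. The difference there was 0.38 against either group (unadjusted limma p 0.0562 against P61S and 0.0787 against wild type). On the first probe P61S/R100E overlapped with both groups, so the probes of Kcnd2 disagree. Other members that the p order put first were higher in P61S for Kcnv1 (0.14), Kcnh6 (0.19) and Kcns1 (0.51), and lower for Kcnb2 (-0.23) and Kcne4 (-0.41). Kcne1 (-1.32) was also in this order, but it passed the filter through wild type alone. That favours a lower value in P61S, so its difference is not read as a result. Groups did not overlap for 6 members (17.7% of tested genes), 3 higher (background 8.4%) and 3 lower (background 9.31%). Without wild type replicate 1 the count at an unadjusted p under 0.05 was 11 members, against 17.2% of tested genes in that fit.

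Kcne1, Kcne4 and Kcnd3 had their highest value of the 8 arrays on wild type replicate 2. Kcne1 read -7.81, -7.26 and -9.10 in P61S, -7.52, -8.22 and -7.78 in P61S/R100E and -8.06 and -5.40 in wild type, and without that array P61S and wild type differed by 0.0091. Kcne4, a subunit that dampens its partner channels, read -5.62, -5.17 and -5.45 in P61S, -5.40, -5.61 and -5.56 in P61S/R100E and -5.48 and -4.54 in wild type. Kcnb2 read -1.86, -1.65 and -1.92 in P61S, -1.62, -1.44 and -1.89 in P61S/R100E and -1.63 and -1.52 in wild type, below both wild type arrays in P61S.

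The 9 members not above background on all arrays were Kcna3, Kcna5, Kcne1, Kcnf1, Kcnj4, Kcnj5, Kcnj10, Kcnj11 and Kcns2. None had an unadjusted p under 0.05 in limma in any of the 3 comparisons. Kcnj10, the inward rectifier of satellite glia, was well above background on both wild type arrays, on 1 of 3 P61S arrays and on no P61S/R100E array. It read -8.65, -6.99 and -8.54 in P61S, -8.09, -8.21 and -8.08 in P61S/R100E and -8.33 and -6.72 in wild type. Of the wild type arrays, 1 lay above and 1 below all 3 P61S/R100E arrays.

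Partner genes were read from a list of 34 auxiliary subunits, scaffolds and related channels, of which 29 were measured. No partner passed an adjusted p of 0.05 in limma, and at an unadjusted p under 0.05 the counts were 1 against P61S (4.68% of tested genes), 3 against wild type (5.19%) and 1 for P61S against wild type (1.72%), all lower in the first group. Kcnab1, a cytoplasmic subunit that speeds inactivation of Kcna channels, read -0.13, 0.06 and -0.17 in P61S, -0.57, -0.21 and -0.49 in P61S/R100E and -0.02 and 0.04 in wild type. It was below the other 5 arrays in P61S/R100E, by -0.34 and -0.43. Dlg4, a scaffold that clusters Kcna channels, read -5.93, -5.54 and -6.31 in P61S, -5.70, -5.99 and -5.64 in P61S/R100E and -5.10 and -4.79 in wild type, so that both wild type arrays lay above all 6 others. Lgi1, a secreted partner of Kcna complexes, differed by -0.53 from P61S (unadjusted limma p 0.0681) and -0.73 from wild type. It read -5.06, -4.09 and -4.84 in P61S/R100E, and the second of these arrays lay above every P61S array. P61S/R100E overlapped with both other groups. Kcnip1, a calcium-binding subunit of Kcnd channels, differed by 0.31 from P61S, Kcnip4 by -0.25 between P61S and wild type, and the BK channel subunits Kcnmb2 and Kcnmb4 by 0.24 and 0.26 from wild type. Abcc8, the sulphonylurea receptor, differed by 0.12 between P61S and wild type.

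Markers of the cell types in the cultures were read on the same scale. Neuronal markers were measured for 11 of 12 genes, and their summed signals, relative to the 75th percentile, were 189 to 219 in P61S, 204 to 220 in P61S/R100E and 199 to 225 in wild type. Nociceptor markers (7 of 8 measured, Mrgprd not well above background) summed to 115 to 141, 111 to 120 and 123 to 125, and all 7 had a difference below 0 in P61S/R100E against either group, with a median of -0.098 and -0.087. With arrays centred on the median of detected probes, 7 of 7 were below 0 against P61S and 4 of 7 against wild type. Fibroblast markers (7 of 7) summed to 145 to 160, 153 to 185 and 160 to 161, and all 7 had a difference above 0 in P61S/R100E against P61S (4 with slide column as a covariate), with a median of 0.16. Against wild type, 4 of these markers were above 0 and 3 below in P61S/R100E. In P61S against wild type, all 7 were below 0. Markers of large-diameter neurons (7 of 8) summed to 5.75 to 6.0, 5.77 to 6.53 and 5.93 to 5.98. Satellite glia markers summed to 44.4 to 45.8, 40.5 to 49.2 and 42.5 to 49.6, and Schwann cell markers to 81.0 to 87.0, 83.9 to 94.8 and 85.8 to 85.9. Macrophage markers summed to 1.66 to 2.85, 1.68 to 1.94 and 1.67 to 1.70, and endothelial and mural markers to 1.58 to 1.59, 1.51 to 1.91 and 1.65 to 1.79. Skeletal muscle markers summed to 0.368 to 0.387, 0.408 to 0.496 and 0.367 to 0.377, so that this sum was higher on every P61S/R100E array than on all other arrays. By gene, 3 of its 6 markers were above 0 and 3 below in P61S/R100E against either group. The part of cell makeup in the differences of the members was not tested.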

How the data were processed

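RNA samples of the cultures, 8 in all, were labelled with Cy3 and hybridised to 8 one-colour Agilent rat arrays (design 028279, build rn4, per the file headers). Spot intensities were extracted by the authors with Agilent Feature Extraction 10.7.3.1 (protocol GE1_107_Sep09, per the file headers), which gives the deposited processed signal, an intensity after background correction. The deposited log2 matrix (22018 probes) correlated with the log2 scanner values at 0.999 or more on each array, and its column medians were 9.82 to 10.33. It was used as an alternative, with its normalization not given in the sources used here.

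Spots of a probe were averaged as log2 values, and log2 of the array's 75th percentile was subtracted. Probes were tested where all arrays of some group had them well above background (23585 of 30367), and the brightest was read for each gene. Probes were named by RefSeq accession: 17998 matched a symbol and 12369 did not. Group means were fitted with limma 3.58.1 (R 4.3.3; 5 residual and 1.93 prior degrees of freedom), with two-sided p-values and Benjamini-Hochberg adjustment over all 23585 probes. The fit was tested on simulated data. Motifs were counted with Python 3.11.15, pandas 2.3.3 and numpy 2.4.6, and figures were drawn with matplotlib 3.10.9. The number of arrays limits the precision.

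Members described with differences were those past an adjusted p of 0.05, the 5 lowest p-values in either direction of a comparison, and those dark in 1 whole group. Of the latter, Kcnj10 is given with no fold because it passed the filter through wild type alone. Kcne1, named by its p, also passed the filter through wild type alone. Levels were also given for 14 genes with known roles in sensory neurons or glia, and for partner genes with the 2 smallest p in each direction. Genes named for lying outside all other arrays (Kcna4, Kcnk2), relatives of named genes and further genes in class counts were chosen after their values were seen. The same holds for the second Kcnd2 probe. The members and lists were chosen with earlier results of these data known. Some members are not reported here by name, while the counts include them. Alternatives were other normalizations, filters, blocks for replicate number and slide position, other probe and variance rules, and leaving out each array. The normexp correction (offset 50) was run on the median spot and background intensities, because the mean spot intensity was not in the columns used.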

Additional observations from a re-analysis of the deposited data

How the results depend on the processing

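All 13 members at an unadjusted limma p under 0.05 between P61S/R100E and P61S, and all 12 between P61S/R100E and wild type, kept their direction in the alternatives run on single probes. Where the 2 groups compared did not overlap, leaving out an array could not change the direction and adds no support. The 13 and 12 members were also picked by p in these same arrays. Over all named values, these members included, the alternatives gave 1086 results with the same sign and still not past an adjusted p of 0.05. The sign changed in 27. A lost unadjusted p under 0.05 was not counted as a change. Such losses were frequent: Kcnk18 against P61S kept an unadjusted limma p under 0.05 in 12 of 20 alternatives. Kcnd1 against wild type kept it in 11 of 20. The cause of these changes was not tested. With 2 or 3 arrays a group and 5 residual degrees of freedom, differences near 0 have no settled sign, and signals close to background limit Kcne1 and Kcnj10.

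Kcnq3 was the only member at an unadjusted p under 0.05 between P61S/R100E and P61S in every alternative. The count of members was 4 with slide column as a covariate (3.75% of tested genes in that fit). Against wild type it was 7 with only the groups compared (3.09%). For P61S against wild type it was 1 with normexp (2.72%), 3 with the column covariate (3.0%) and 1 with only the groups compared (2.11%), in place of 0. Leaving out 1 array gave 7 to 14 (2.72% to 6.93%), 1 to 22 (2.21% to 24.6%) and 0 to 11 members (0.782% to 17.2%) in the 3 comparisons, and 0 to 0, 0 to 4 and 0 to 0 members past an adjusted p of 0.05. Over all probes, leaving out 1 array gave 0 to 3, 0 to 1244 and 0 to 250 past an adjusted p of 0.05. In place of 0 probes, P61S/R100E against P61S gave 1 at an adjusted p under 0.10, 1 with deposited values, 1 with the filter on all arrays and 6 with the variance trend. Against wild type each of these gave 1, as did normexp and quantile normalization. P61S against wild type gave 1 with normexp and 1 with quantile normalization.

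The replicate number as a block gave 13, 9 and 0 members at an unadjusted p under 0.05, against 3.93%, 3.51% and 1.12% of tested genes. Same-numbered arrays of the mutants correlated at 0.051, -0.021 and 0.0081 in their deviations. With wild type, same-numbered arrays correlated at 0.104 and 0.167 for P61S and at -0.158 and -0.198 for P61S/R100E. These values show no common sign, and so few arrays cannot settle whether the numbers pair the samples.

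The column covariate rests on replicate 2 of each mutant and is extended to column 4, which held wild type alone. It therefore cannot separate column from wild type. With it, P61S minus wild type became -0.07 for Kcnv1, -0.079 for Kcnh6, 0.41 for Kcnd3, 1.03 for Kcne1, 0.25 for Kcne4, -0.22 for Abcc8 and 0.23 for Dlg4. In P61S/R100E against P61S the difference became -0.82 for Kcna2, -0.24 for Kcnd3, -0.070 for Kcnk10, 0.083 for Kcns3, -0.14 for Kcnmb2 and 0.020 for Lgi1. Leaving out 1 array gave P61S minus wild type -2.65 to 0.0091 for Kcne1 and -0.88 to 0.062 for Kcne4, above 0 only without wild type replicate 2. For P61S/R100E against P61S, leaving out 1 array gave -0.077 to 0.35 for Kcna2, -0.36 to 0.47 for Kcnj10 and -0.048 to 0.010 for Kcns3. Against P61S, Kcnj10 was 0.019 with normexp and 0.082 with quantile normalization, and Kcns3 was 0.011 with quantile normalization and 0.0092 with median centring. The mean of all probes gave -0.017 for Kcnk2.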
